A study of Mus musculus with 6 samples.

Results

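Endothelial identity and angiogenic receptor genes were followed in mouse kidney cortex after ischaemia-reperfusion injury (IRI), with and without renal congestion. The 10 genes were chosen by symbol: Cdh5, Pecam1, Kdr, Flt1, Tek, Emcn, Ehd3, Plvap, Apln and Aplnr. All 10 had a row among the 26971 rows of the count table, and all 10 passed the filter on low counts. The tissue was kidney cortex of male C57BL/6 mice taken 1 day after surgery, and every mouse had IRI. One group of 3 libraries had IRI alone (titled CLK_IRI), and the other group of 3 had the treatment that the labels write as IRI with IVCC (titled Cong_IRI), called congested IRI here from the design text. Neither CLK nor IVCC is expanded in the labels. No library from an uninjured kidney was analysed here, so a level in IRI cannot be set against a resting level. The labels do not say that the libraries came from separate animals, and the p-values below therefore cover the spread of these 6 libraries, which may be technical.

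The capillaries of the kidney cortex are of different kinds. Glomerular capillaries filter plasma, and peritubular capillaries take up what the tubules reabsorb. Both depend on vascular endothelial growth factor A (VEGF-A), made by podocytes and tubule cells, which signals through the receptor Kdr (VEGFR2) and is trapped by Flt1 (VEGFR1). Angiopoietin-1 acts on the receptor Tek (Tie2) and steadies the endothelial barrier, whereas angiopoietin-2 can block it. Apelin, a short secreted peptide, acts on the receptor Aplnr and marks endothelial cells that sprout.

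Total counts ran from 10865860 to 14350425 per library. Proximal tubule genes, which mark kidney cortex among other parts, summed to between 33904 and 64801 CPM (counts scaled to library size with edgeR's TMM factors) for 11 genes, and to 10097 to 21999.7 CPM without Kap, the most abundant; markers of the medulla were not read. The 10 endothelial genes together summed to 309.8, 363 and 436 CPM in replicates 1, 2 and 3 of IRI. In those of congested IRI they summed to 340.0, 386 and 401 CPM. Such sums of chosen genes do not measure the share of RNA from tubule or endothelial cells. Replicate 1 of both groups stood apart in tubular injury genes. A list of 8 such genes summed to 47017 and 64391 CPM in replicate 1 of IRI and congested IRI, against 6165 to 18040.0 CPM in the other 4 libraries. Without Spp1, the most abundant, the sums were 6748 and 5082 CPM against 1373 to 2707 CPM.

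Per kilobase of the longest annotated transcript, the order of the mean levels over 6 libraries was led by Plvap, at 48.7 CPM per kilobase (SD 17.0, n = 6). Emcn followed at 17.0 (SD 3.21) and Pecam1 at 15.4 (SD 2.43). Tek, Ehd3, Cdh5, Flt1, Kdr and Apln lay between 6.73 and 4.47, each neighbour within 1 SD of the next, so their order is not resolved, and neither is that of Emcn and Pecam1. Aplnr was lowest at 0.685 (SD 0.564). Plvap ranged from 25.4 to 69.5 and Emcn from 12.8 to 21.7, so the highest and the second highest gene did not overlap in any library.

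**Figure D1:**
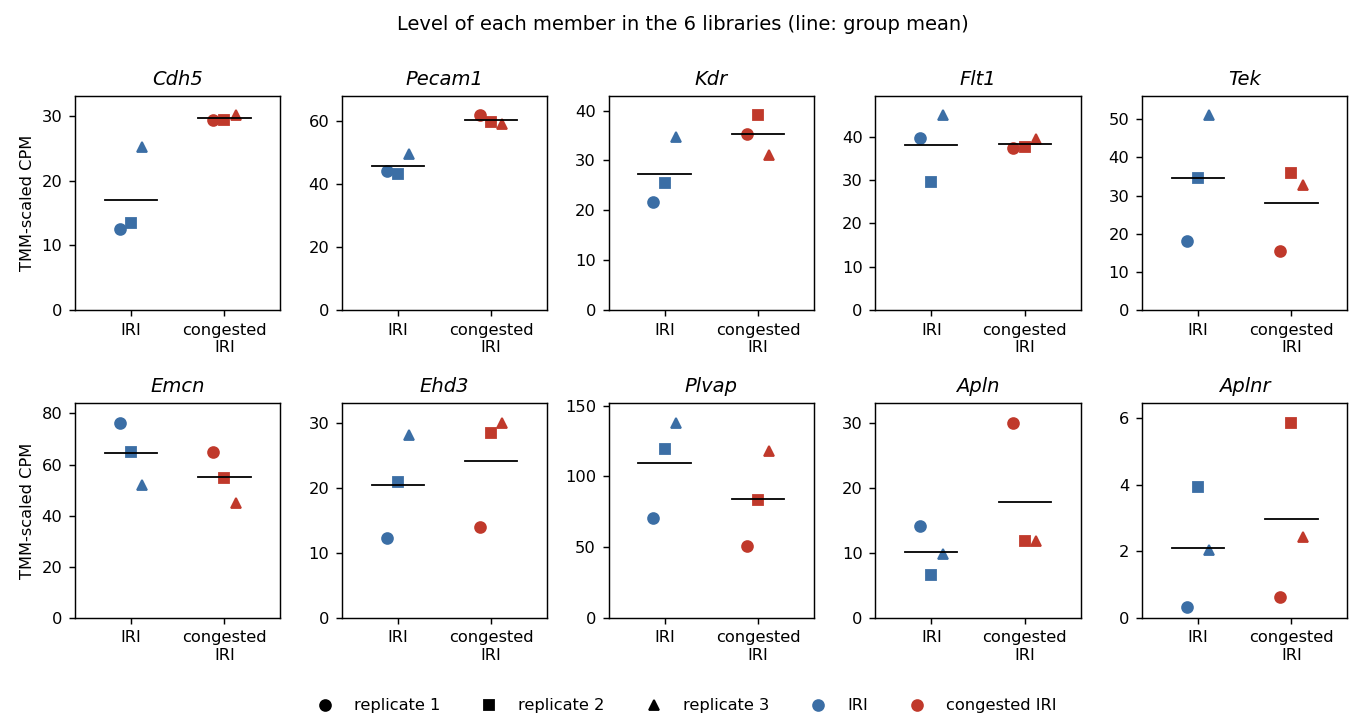
TMM-scaled CPM (vertical axis, from 0) of each of the 10 genes in 3 IRI (blue) and 3 congested IRI (red) libraries, with the replicate number as the marker and the group mean as a line. Cdh5 and Pecam1 are higher in every congested library than in any IRI library, whereas Tek, Ehd3, Plvap and Aplnr are lowest in replicate 1 of both groups.

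Cdh5 and Pecam1 were the 2 members whose groups did not overlap. Cdh5 (chr8:104101625-104144511, plus strand of GRCm38, a protein-coding gene as are the other 9) encodes VE-cadherin, the adhesion molecule of the endothelial adherens junction. Its level was 12.5, 13.5 and 25.2 CPM in IRI and 29.3, 29.4 and 30.1 CPM in congested IRI, in the order of replicates 1, 2 and 3 here and in what follows. All congested libraries lay above all IRI libraries, and they differed little among themselves (29.6 ± 0.386 CPM against 17.0 ± 7.04 in IRI; SD, n = 3). The fitted fold was 1.74, or a log2 difference of 0.80, congested over IRI (standard error, SE, 0.30). By edgeR's quasi-likelihood test the unadjusted p was 0.0292, and the Benjamini-Hochberg adjusted p over all genes tested with edgeR was 0.933. Cdh5 therefore did not pass the threshold of an adjusted p under 0.05. IRI replicate 3 (written IRI 3 where a library is left out) lay nearest to the congested libraries, and without it the log2 difference was 1.19 (edgeR adjusted p = 0.173). That drop was not particular to Cdh5, since edgeR's adjusted p was lower for every member in that fit. It was 0.203 for Kdr, 0.207 for Pecam1 and 0.93 for Tek, and 0 genes were called. Over all alternatives Cdh5 stayed between 0.62 and 1.19. Set against Cdh5 within a library, 4 of the other 9 members (Kdr, Flt1, Tek and Plvap) were lower in congested IRI without overlap and 0 higher, where 43.4% of all genes were lower and 0.028% higher.

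Pecam1 (chr11:106654217-106750628, minus strand) encodes an adhesion molecule of endothelial junctions that leukocytes and platelets also carry. It stood at 44.1, 43.4 and 49.7 CPM in IRI and at 62.0, 59.9 and 59.2 CPM in congested IRI. The groups were apart, at a log2 difference of 0.40 (SE 0.17, edgeR adjusted p = 0.933). Bulk RNA cannot tell more endothelial cells from more RNA per cell. Of all 14274 genes tested, 3.42% were higher in congested IRI without overlap and 3.07% lower; among the 10 members 2 were higher and 0 lower. Without replicate 1 of both groups, a choice made after seeing the data, 4 members were higher without overlap (Cdh5, Pecam1, Ehd3 and Apln) and 1 lower (Plvap), against 11.2% and 12.2% of all genes.

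No member passed edgeR's test between the groups, and neither did any gene: 0% of 14274 genes were called, with 0.988% higher and 1.01% lower at an unadjusted p under 0.05. Among the members Cdh5 alone was under 0.05 unadjusted. The median log2 fold change of the 10 members was 0.31, with 7 above 0 and 3 below, against a median of -0.005 over all tested genes. That median rests on single libraries, since it was 0.03 without IRI 1, 0.06 without congested 2 and 0.49 without IRI 3. It was 0.18 without replicate 2 of both groups and 0.19 with each library's trend over transcript length and GC removed.

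Replicate numbers 1 to 3 occur in both groups, and libraries of the same number were compared as pairs, although the labels do not say what a number shares. Within numbers, 5 members were higher in congested IRI in all 3 pairs (Cdh5, Pecam1, Ehd3, Apln and Aplnr) and 2 were lower in all 3 (Emcn and Plvap), against 13.1% of all genes in each direction. The data do not settle how replicates 2 and 3 pair. With these crossed, Aplnr (3.93 CPM in IRI 2, 2.43 in congested 3) and Emcn (51.8 in IRI 3, 54.9 in congested 2) would be mixed. The other members named would keep their direction. Cdh5 differed by log2 1.22, 1.12 and 0.25 in replicates 1, 2 and 3. The difference of Pecam1 was 0.49, 0.46 and 0.25. Each was smallest in replicate 3. When the replicate number entered as a block, edgeR gave Cdh5 a log2 fold change of 0.87 (unadjusted p = 0.00689) and Apln one of 0.74 (unadjusted p = 0.0124), both at an adjusted p of 0.577. These were the 2 members under 0.05 unadjusted in that fit, where 4.08% of genes were higher and 2.98% lower at that level and 0% passed adjustment. DESeq2 with the block called 0.056% of genes and 0 members. Without replicate 3 of both groups, a choice made after seeing the data, the edgeR fit with the block had 1 residual degree of freedom and called 37.8% of all genes and 5 members (Apln, Cdh5, Kdr, Pecam1 and Plvap).

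**Figure D2:**
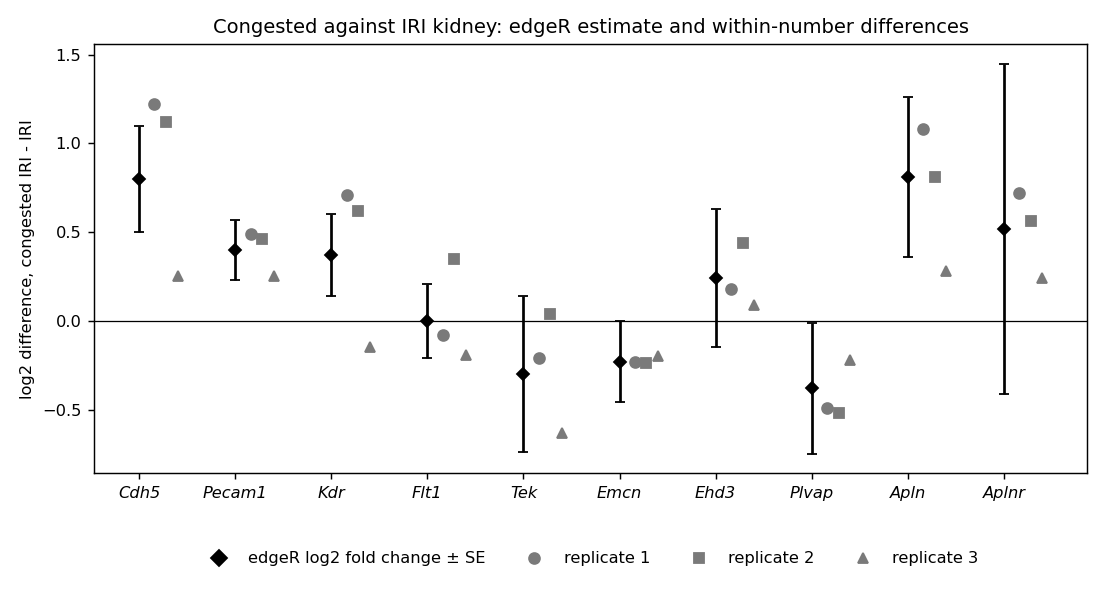
Log2 difference of congested IRI minus IRI (vertical axis) for each gene: the diamond and bar are edgeR's log2 fold change ± its standard error (SE) over 3 against 3 libraries, and the grey markers are the differences within replicates 1, 2 and 3. Cdh5, Pecam1, Ehd3, Apln and Aplnr have all 3 markers above 0, Emcn and Plvap all 3 below, and Flt1 is centred on 0.00.

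The VEGF receptors overlapped between the groups. Kdr (chr5:75932827-75978458, minus strand), the main signalling receptor for VEGF-A, was at 21.6, 25.4 and 34.8 CPM in IRI and at 35.4, 39.1 and 31.2 CPM in congested IRI. IRI replicate 3 lay within the congested range. The log2 difference of Kdr was 0.37 (SE 0.23, edgeR adjusted p = 0.933), and its within-number differences were 0.71, 0.62 and -0.15. Without IRI replicate 3 it was 0.59, without replicate 3 of both groups 0.67, and without IRI 1 or replicate 1 of both groups 0.23.

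Flt1 (chr5:147561604-147726011, minus strand), the decoy and regulatory receptor, was at 39.8, 29.6 and 45.0 CPM in IRI and at 37.5, 37.7 and 39.5 CPM in congested IRI. The IRI libraries spread to both sides of the congested ones. Its log2 difference was 0.00, and 2 SE on either side spanned -0.42 to 0.42, so a change of that size in either direction is within the error. Gene counts do not separate the soluble from the membrane form of Flt1. Both receptor genes have long transcripts, 5924 bases for Kdr and 6895 for Flt1 against a median of 3281 over tested genes, and after the trend in length and GC content was removed the log2 fold changes were 0.18 and -0.27. The ratio of Kdr to Flt1 counts, which needs no scaling between libraries, was 0.542, 0.859 and 0.773 in IRI and 0.945, 1.04 and 0.79 in congested IRI. The lowest congested ratio lay within the IRI range.

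Ligands and co-receptors of the VEGF system were read beside them. Vegfa, the main ligand, was at 117, 143 and 166 CPM in IRI and at 104, 128 and 148 CPM in congested IRI, a log2 difference of -0.16 (SE 0.23, edgeR adjusted p = 0.935). Nrp1, a co-receptor of Kdr, stood at 53.6, 52.9 and 50.9 CPM against 63.1, 84.3 and 63.1 CPM. Its groups did not overlap, with a log2 difference of 0.42 (SE 0.20, edgeR unadjusted p = 0.0687, adjusted p = 0.933). Nrp2, the related co-receptor used by VEGF-C and semaphorins, had 8.35, 9.39 and 13.2 CPM in IRI and 17.2, 17.5 and 17.3 CPM in congested IRI. Here too the groups did not overlap; the log2 difference was 0.75 (SE 0.24, edgeR unadjusted p = 0.0147, adjusted p = 0.933).

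The angiopoietin receptor Tek (chr4:94739289-94874976, plus strand) differed between replicate numbers, as given further on, and overlapped between the groups. It stood at 18, 34.7 and 51.1 CPM in IRI and at 15.5, 35.8 and 32.9 CPM in congested IRI. Replicate 1 was lowest in both groups. The groups overlapped in part, with IRI 3 above every congested library and congested 1 below every IRI library. The log2 difference between groups was -0.30 (SE 0.44, edgeR adjusted p = 0.935), and it was 0.10 without IRI 3, -0.01 without congested 1, -0.03 without replicate 3 of both groups and -0.61 without IRI 1.

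Of Tek's partners, Angpt1, the activating ligand, was at 11.5, 13.5 and 19.8 CPM in IRI and at 18, 18.7 and 16.3 CPM in congested IRI (log2 difference 0.25, SE 0.25). Angpt2, the ligand that can block Tek, ran from 6.52 to 22.0 CPM in IRI and from 4.54 to 18 CPM in congested IRI, and differed by log2 -0.16 (SE 0.58). Tie1, the sister receptor, had a log2 difference of -0.15 (SE 0.32). Ptprb, the phosphatase that acts on Tek and binds VE-cadherin, was at 14.9, 22.3 and 52.7 CPM against 27.6, 51.1 and 50.5 CPM, 0.53 on the log2 scale (SE 0.48). For each of these 4 genes the groups overlapped.

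Over the 15 tested of 19 listed genes of the VEGF, angiopoietin and apelin pathways, 8 lay above 0 and 7 below, with a median of 0.20 and 0 called by edgeR. Groups did not overlap for 3, all higher in congested IRI, against 3.42% of all genes higher and 3.07% lower: Nrp1, Nrp2 and Svep1, a secreted matrix protein. Svep1 was at 3.02, 5.04 and 4.68 CPM in IRI and at 5.83, 9.52 and 10.4 CPM in congested IRI, a log2 difference of 1.02 (SE 0.34, edgeR unadjusted p = 0.0191, adjusted p = 0.933). With the length and GC trend removed the log2 difference was 0.60 for Svep1, 0.52 for Nrp2 and 0.31 for Nrp1. It was 0.24 for Ptprb, 0.04 for Angpt1 and -0.26 for Tie1. Among 13 genes of tip cells and Notch signalling 0 were called, with a median of 0.11. Its 2 genes with the smallest p were Esm1, a secreted tip cell marker, at a log2 difference of 0.60 (SE 0.30), and Notch1 at 0.96 (SE 0.56).

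**Figure D3:**
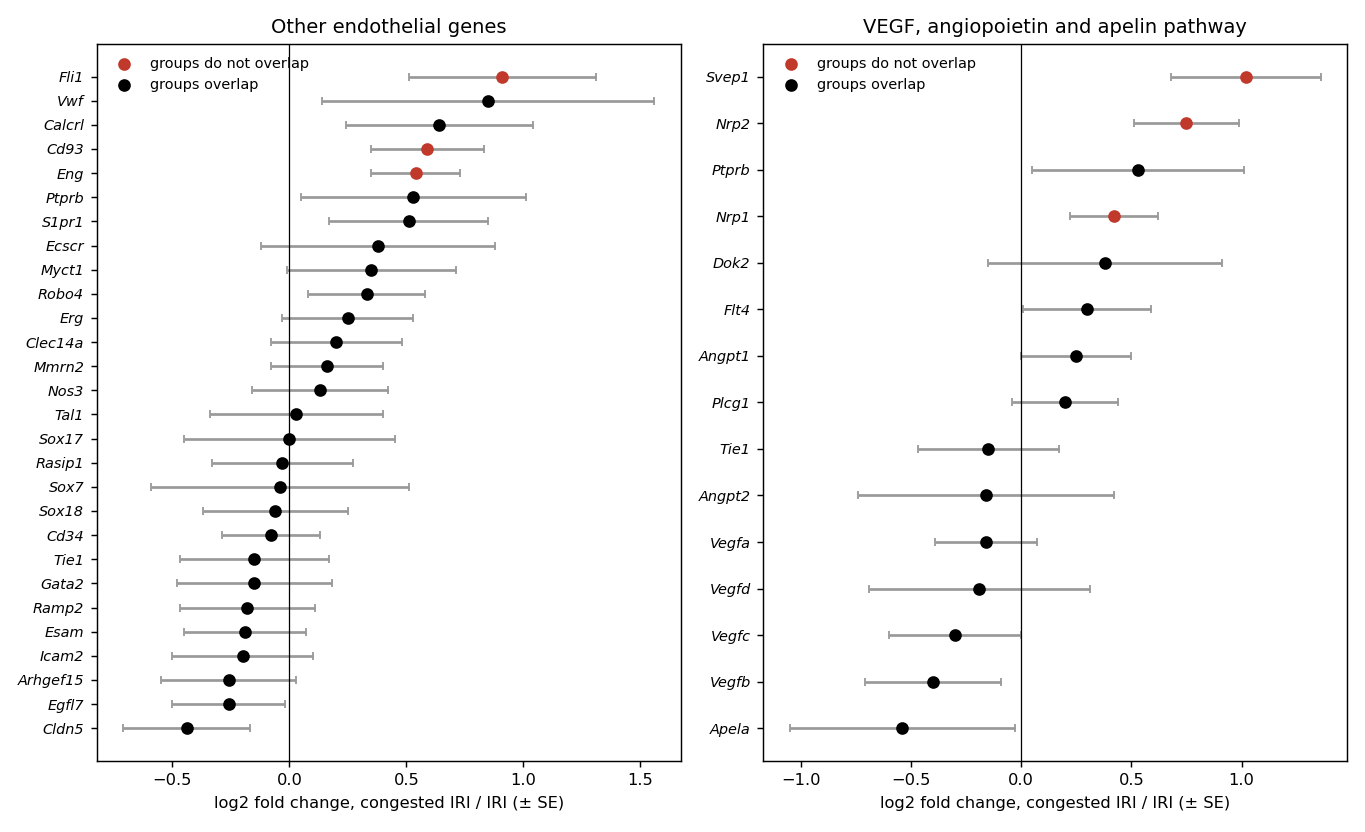
Log2 fold change of congested IRI over IRI from edgeR (horizontal axis, bars ± standard error, 3 against 3 libraries) for 28 other endothelial genes (left) and 15 tested genes of the VEGF, angiopoietin and apelin pathways (right). Red points mark genes whose groups do not overlap, which are Fli1, Cd93 and Eng on the left and Svep1, Nrp2 and Nrp1 on the right.

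Markers of kinds of capillary followed: Emcn, Plvap and Ehd3. Their fitted differences had either sign, but 2 SE on either side spanned 0 for each, so no direction is resolved. Emcn (chr3:137341067-137432185, plus strand) encodes endomucin, a sialomucin of capillary and venous endothelium. It was at 76.4, 65.1 and 51.8 CPM in IRI and at 65.1, 54.9 and 45.0 CPM in congested IRI. The difference within each number was alike, -0.23, -0.24 and -0.20. This rests on pairing equal numbers, since congested 2 lay above IRI 3, and the groups overlapped. Its log2 difference was -0.23 (SE 0.23, edgeR adjusted p = 0.933), and -0.37 after the trend in length and GC content was removed. It was -0.36 without IRI 3 and -0.37 without congested 1. The value was -0.08 without IRI 1 and -0.10 without congested 3.

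Plvap (chr8:71497765-71511752, minus strand) encodes the protein of the diaphragms that close fenestrae and caveolae and is known for peritubular capillaries. Its level was 70.8, 119.7 and 138 CPM in IRI and 50.5, 83.5 and 118 CPM in congested IRI. Each congested library was below the IRI library of its number, by log2 -0.49, -0.52 and -0.22, yet the groups overlapped. The log2 difference was -0.38 (SE 0.37, edgeR adjusted p = 0.933). It was -0.12 without congested 1, -0.17 without IRI 3, -0.61 without IRI 1 and -0.71 without congested 3.

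Ehd3 (chr17:73804134-73832094, plus strand), a membrane-trafficking ATPase known for glomerular endothelium, was at 12.2, 20.9 and 28.1 CPM in IRI and at 13.9, 28.4 and 30.0 CPM in congested IRI. Replicate 1 was again lowest in both groups. Its log2 difference was 0.24 (SE 0.39), and it was -0.02 without IRI 1, 0.06 without congested 3, 0.11 without congested 2, 0.12 without replicate 2 of both groups, 0.55 without IRI 3 and 0.52 without congested 1. Of 17 tested genes of 18 listed as markers of kinds of kidney endothelium 0 were called, and the median was -0.07; Cldn5, a tight junction gene of arterial endothelium, had the smallest p and a log2 difference of -0.44 (SE 0.27; -0.18 with the length and GC trend removed), and Nostrin followed at -0.61 (SE 0.46).

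In replicate 1 of both groups apelin was at its highest and its receptor at its lowest. Apln (chrX:48025146-48034853, minus strand), the ligand, stood at 14.2, 6.66 and 9.80 CPM in IRI and at 30.1, 11.8 and 11.9 CPM in congested IRI. Congested replicate 1 was the highest library, and the other congested libraries lay within the IRI range. The log2 difference was 0.81 (SE 0.45, edgeR adjusted p = 0.933), but 0.21 without congested 1 and 0.53 without replicate 1 of both groups.

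Aplnr (chr2:85136225-85139923, plus strand), the receptor, was the scarcest member, with 4, 46 and 23 counts in IRI and 7, 80 and 31 in congested IRI. These are 0.318, 3.93 and 2.03 CPM, and 0.628, 5.86 and 2.43 CPM. The log2 difference between groups was 0.52 (SE 0.93), and it was 0.01 without IRI 1, 1.35 without IRI 2, 0.99 without congested 1 and -0.43 without congested 2. The ratio of Apln to Aplnr counts was 44.5 and 47.9 in replicate 1 of IRI and congested IRI, and between 1.70 and 4.90 in the other 4 libraries. Apela, which encodes the other ligand of Aplnr, was at 13.8, 32.0 and 34.3 CPM in IRI and at 8.88, 14.8 and 31.2 CPM in congested IRI. As with Tek, Ehd3, Plvap and Aplnr, its lowest library was replicate 1 in each group, which held for 29.1% of all genes. The log2 difference of Apela between groups was -0.54 (SE 0.51, edgeR adjusted p = 0.933). Apela was named outside the rule given with the processing.

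Between the replicate numbers, whatever the group, 4 of the 10 members differed at an edgeR adjusted p under 0.05, where 8.01% of all tested genes did. They were Aplnr (adjusted p = 0.0105), Tek (0.036), Ehd3 (0.0451) and Plvap (0.0456), each from edgeR's quasi-likelihood test of the number in a model with the group. Replicate 1 was the lowest library of its group in both groups for these 4 and for Cdh5, where 29.1% of all genes did so. Emcn and Apln were highest in replicate 1 of both groups, as were 27.7% of all genes, with edgeR adjusted p-values of 0.257 and 0.0546 for the number; that of Apln was 0.0455 with RLE factors and 0.0129 by DESeq2.

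Sizes were alike in both groups for the called genes. The test that called them favours genes whose number effect is alike in both groups, so this likeness is not a separate result. The mean of replicates 2 and 3 was 2.39 times replicate 1 for Tek in IRI and 2.21 times in congested IRI. For Ehd3 the ratios were 2 and 2.1, and for Plvap 1.82 and 2. Those for Aplnr were 9.36 and 6.60, on the few counts of replicate 1 given above. Cdh5 had 1.55 in IRI and 1.01 in congested IRI, where its 3 libraries were nearly level. Plvap set against Emcn within a library gave 0.927 and 0.777 in replicate 1 of IRI and congested IRI and 1.52 to 2.66 in the other 4 libraries. Replicate 1 therefore held less Plvap per Emcn in both groups.

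**Figure D4:**
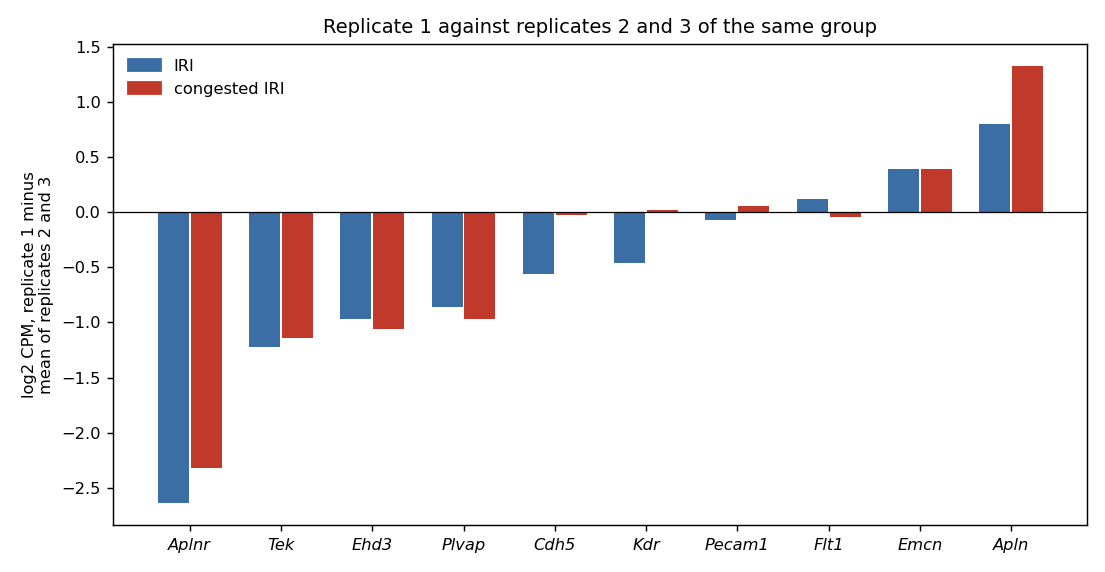
Log2 CPM of replicate 1 minus the mean of replicates 2 and 3 of the same group (vertical axis; 1 value per bar, no error) for each gene in IRI (blue) and congested IRI (red). The bars for Aplnr, Tek, Ehd3 and Plvap lie at -0.86 or lower in both groups and those for Apln and Emcn at 0.39 or higher, while Pecam1 and Flt1 lie within 0.12 of 0.

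These calls depend on single libraries, and each such fit had 1 residual degree of freedom. Without IRI 1 or congested 1 the number of members called was 1, and without congested 2 it was 2. It was 6 without IRI 3 and 8 without congested 3, where 5207 of 14663 and 7841 of 14682 tested genes were called in all. The member counts thus rose where calls rose over the whole table. The range of genes called over all single-library fits is given in the last section. Aplnr passed in all 13 other settings that tested it. Tubular injury moved with the same libraries: all 8 tested genes of that list differed between the replicate numbers, among them Spp1, at 40269 and 59308 CPM in replicate 1 of IRI and congested IRI against 4792 to 15333 CPM elsewhere. Proximal tubule genes were called for 5 of 11. The part of tubular injury in the levels of Tek, Ehd3, Plvap and Aplnr was not tested.

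Promoter windows are shown for the members that shared a direction in replicate 1, as far as the table of RefSeq promoters (GRCm38.p6) held them: Tek and Ehd3, lowest there, and Emcn and Apln, highest. The table matched 6 of the 10 members, the other matches being Kdr and Flt1. Each window has 300 bases, most of them upstream of the start that RefSeq annotates. The Ehd3 window lies inside the gene as placed above by GENCODE, where it starts at 73804134. Capitals mark CAGGAA or CCGGAA on either strand. These are forms of the binding motif of ETS factors, a family that includes the endothelial regulators Erg and Fli1. Other stretches with the shorter core GGAA, such as aaaggaagag in the Emcn window, were neither marked nor counted, so unmarked sites may exist.
Tek, chr4:94739039-94739338, plus strand: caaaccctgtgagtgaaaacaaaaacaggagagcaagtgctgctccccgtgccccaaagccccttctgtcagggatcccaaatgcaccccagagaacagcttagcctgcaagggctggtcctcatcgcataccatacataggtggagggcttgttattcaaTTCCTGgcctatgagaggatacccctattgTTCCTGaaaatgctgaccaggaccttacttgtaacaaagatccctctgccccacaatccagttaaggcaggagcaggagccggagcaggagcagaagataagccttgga
Ehd3, chr17:73804591-73804890, plus strand: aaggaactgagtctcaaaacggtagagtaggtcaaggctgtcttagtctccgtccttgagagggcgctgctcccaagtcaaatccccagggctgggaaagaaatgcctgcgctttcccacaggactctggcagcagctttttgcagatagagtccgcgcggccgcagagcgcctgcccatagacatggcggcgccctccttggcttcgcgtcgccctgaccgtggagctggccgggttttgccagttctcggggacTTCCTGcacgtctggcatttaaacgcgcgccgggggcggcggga
Emcn, chr3:137340828-137341127, plus strand: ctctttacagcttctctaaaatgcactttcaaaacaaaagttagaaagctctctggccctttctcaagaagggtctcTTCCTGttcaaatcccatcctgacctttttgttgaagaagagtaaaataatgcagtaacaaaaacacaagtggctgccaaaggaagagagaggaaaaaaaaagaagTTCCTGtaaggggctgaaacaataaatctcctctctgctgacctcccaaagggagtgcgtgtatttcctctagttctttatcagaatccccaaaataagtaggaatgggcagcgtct
Apln, chrX:48034804-48035103, minus strand: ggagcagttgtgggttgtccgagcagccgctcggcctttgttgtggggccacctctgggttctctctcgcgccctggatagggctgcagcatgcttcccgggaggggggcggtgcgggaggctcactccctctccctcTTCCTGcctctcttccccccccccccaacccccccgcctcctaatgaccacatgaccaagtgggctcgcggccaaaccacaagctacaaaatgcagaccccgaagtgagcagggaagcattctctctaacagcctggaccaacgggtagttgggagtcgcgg
CAGGAA was present in all 4 windows, on the reverse strand as TTCCTG, with 2 matches each in Tek and Emcn and 1 each in Ehd3 and Apln. Neither Kdr nor Flt1 held it, and Kdr held 1 match of CCGGAA. Among 32851 windows of the same length in the table, 30.6% held CAGGAA and 14.9% CCGGAA on either strand. CAGGAA was thus found both in genes low and in genes high in replicate 1. A hypoxia-response core, searched as ACGTG or GCGTG on both strands, had 1 match of ACGTG in Ehd3, 1 of GCGTG each in Emcn and Flt1 and 2 of GCGTG in Kdr, and no match in Apln or Tek. Of all windows 19.6% held ACGTG and 32.4% held GCGTG. A match describes the letters only.

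Other endothelial genes, 28 in a list that shares no gene with the members but holds Tie1 and Ptprb again, gave a median log2 fold change of 0.08, with 16 above 0 and 12 below and 0 called. That list summed to 331, 368 and 413 CPM in IRI and to 402, 429 and 443 CPM in congested IRI, so the ranges of the sums overlapped. Eng, a co-receptor for bone morphogenetic proteins on endothelium, was at 42.2, 51.1 and 53.3 CPM in IRI and at 73.4, 64.4 and 74.7 CPM in congested IRI. Its groups did not overlap (log2 difference 0.54, SE 0.19, edgeR unadjusted p = 0.024, adjusted p = 0.933). Cd93, a lectin-like receptor of endothelium and myeloid cells, did the same at 0.59 (SE 0.24, edgeR unadjusted p = 0.0439, adjusted p = 0.933), and was at 0.34 with the length and GC trend removed.

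The third gene of the list without overlap was Fli1, an ETS transcription factor of endothelial and blood cells, named after its values were seen. It had 4.45, 2.39 and 4.86 CPM in IRI and 10.6, 6.15 and 5.34 CPM in congested IRI, a log2 difference of 0.91 (SE 0.40). Of the 28 genes, 3 were thus higher without overlap and 0 lower, against 3.42% and 3.07% of all genes. The junction genes Cldn5 and Esam overlapped, at -0.44 (SE 0.27) and -0.19 (SE 0.26); Esam was named after its values were seen. Between replicate numbers 1 of 28 (Ecscr) was called by edgeR, against 8.01% of all genes.

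**Figure D5:**
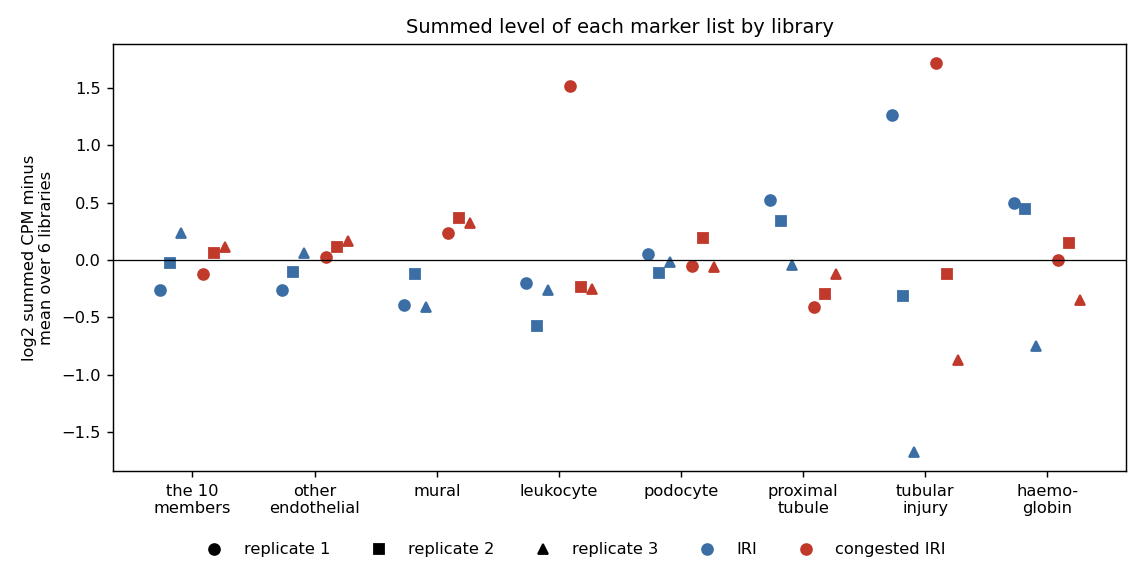
Log2 of the summed CPM of each gene list in a library minus its mean over the 6 libraries (vertical axis), for IRI (blue) and congested IRI (red) with the replicate number as the marker. The mural sum, drawn with Acta2 in it, is higher in all congested libraries. The mural sums without Acta2, which overlap, are not drawn. Leukocyte genes stand out in congested replicate 1, and tubular injury genes stand out in replicate 1 of both groups.

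Markers of other cells that could carry these transcripts were read beside the members. Leukocyte genes, which matter for Pecam1, Cd93 and Fli1, had 12 of 12 members above 0 with a median of 0.70 and 0 called, and summed to 87.9 to 114 CPM in IRI and 109.9 to 374 CPM in congested IRI. The highest sum, 374 CPM, was congested replicate 1, and without that library the median was 0.10. Without Lyz2, its most abundant gene, the sum in that library was 177 CPM, against 72.4 to 97.5 CPM in the other 5. The genes with the smallest p in the leukocyte list were Ptprc, the common leukocyte antigen, at 1.05 (SE 0.47; 0.64 with the length and GC trend removed), and Cd53 at 1.93 (SE 0.93). Platelet genes summed to 5.71 to 8.79 CPM in the 6 libraries, and 4 of 7 were under 1 CPM in every library.

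Mural genes, of pericytes and smooth muscle, summed to 169.7 to 207 CPM in IRI and to 266 to 290.0 CPM in congested IRI, with 10 of 12 members above 0, a median of 0.32 and 0 called. The separation of the sums rests on Acta2, the actin of smooth muscle, at 58.9, 57.5 and 22.6 CPM against 140.4, 78.0 and 94.4 CPM. Without Acta2 the other 11 summed to 113 to 149 CPM and 125 to 212 CPM, which overlap. Notch3, a receptor of mural cells, had a log2 difference of 0.89 (SE 0.26, edgeR adjusted p = 0.933), or 0.55 with the length and GC trend removed. Podocyte genes summed to 344 to 386 CPM in IRI and 356 to 425 CPM in congested IRI. Lymphatic genes summed to 32.4 to 34.5 CPM and 23.9 to 44.4 CPM, with Lyve1 at 0.177 to 3.73 CPM. Haemoglobin genes, read for blood content, summed to 75.4 to 179 CPM in IRI and 99.7 to 141 CPM in congested IRI. The proximal tubule sum, 43698 to 64801 CPM in IRI and 33904 to 41288 CPM in congested IRI, was mostly Kap. Without Kap the other 10 genes summed to 14094 to 21999.7 CPM and 10097 to 20595 CPM, which overlap, and the list's median was -0.09 with 5 above 0, 6 below and 0 called. The part of mural, leukocyte, tubule and blood RNA in the differences of Cdh5 and Pecam1 was not tested.

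The genes whose profile over the 6 libraries lay nearest to the mean profile of the 9 members with a mean of at least 5 CPM were Agtr1a, Nacc2, Lmbr1, Arnt and Golga3. Nearness was the root mean square difference of log2 CPM centred on each gene's mean, and it was 0.021 for Agtr1a, the angiotensin II receptor, and 0.034 to 0.038 for the other 4, among 10967 genes compared. The mean profile was -0.31, -0.19 and 0.20 in IRI and -0.01, 0.15 and 0.15 in congested IRI. It averages members that differ in direction.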

How the data were processed

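The labels' protocols name kidney cortex RNA and a stranded preparation for polyadenylated transcripts, made into 6 libraries. Gene-level read counts were deposited as whole numbers with no normalization, as the values show. Per the submitters' processing notes, the tools were STAR 2.7.10a, featureCounts and Subread, on GRCm38; no roles were stated. Strand setting, multimapping and annotation: not given in the sources used here. A member may therefore share reads with a gene on the opposite strand.

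The whole table was fitted in R 4.3.3 with edgeR 4.0.16: TMM scaling, filterByExpr (minimum count 10, total 15), robust quasi-likelihood F test of group, Benjamini-Hochberg adjustment over 14274 genes, threshold 0.05. The standard error (SE) is the size of the log2 fold change over the root of F; log2 CPM has prior count 2. Another edgeR model, group plus replicate number, tested the numbers. Other tools were DESeq2 1.42.0, limma 3.58.1 (voom) and mgcv 1.9.3 (the length and GC trend, basis 6). GENCODE M21 on GRCm38 gave coordinates, GC and longest transcripts, for 95.6% of tested genes. Scripts were tested on simulated data. Sums of a list without its most abundant gene were added after seeing the data.

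Members and the 13 other lists were chosen with earlier results of these data known. Named were all 10 members, by rule 2 genes of each list (lowest p), set ligands and partners, and the 5 nearest profiles; those bearing on the members are printed. No 2 replicates looked like one library, since chi-square over degrees of freedom was 18.8 to 194 for pairs within a group. Libraries numbered 1, 2 and 3 deviated from their group means together (across-gene correlations 0.724, 0.342 and 0.429). Equal numbers were treated as pairs, a choice from the data that the labels do not state. Crossed numbers also correlated, at 0.401 for IRI 2 with congested 3 and 0.249 for IRI 3 with congested 2. Replicate 1 is thus set apart, but the values do not settle how replicates 2 and 3 pair.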

Additional observations from a re-analysis of the deposited data

How the results depend on the processing

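Between the groups, 0 members and 0 genes were called by edgeR under every scaling and filter, without robust dispersion, and by DESeq2 and limma-voom, which had 354 and 285 genes at an unadjusted p under 0.05. In edgeR's fit with the replicate block 0 members and 0 genes were called, and DESeq2 called 8 genes and 0 members. Leaving a replicate number out of both groups with the block, added after seeing the data, left 1 residual degree of freedom; 12 and 9 genes and 0 members were called without replicates 1 and 2, and 5457 genes (37.8%) and 5 members without replicate 3. The median log2 fold change of the members was 0.03 to 0.49 when 1 library was left out.

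Flt1 changed sign: it was -0.01 with RLE factors and with DESeq2, -0.27 with the length and GC trend removed, -0.24 with that trend removed and the replicate block, and -0.14 without replicate 2 of both groups, with or without the block. Leaving out 1 library gave Flt1 values of -0.15 to 0.14, Ehd3 -0.02 to 0.55, Tek -0.61 to 0.10 and Aplnr -0.43 to 1.35. The cause was not tested. Cdh5, Pecam1, Kdr, Apln, Emcn and Plvap kept their direction in all 24 alternatives. With total counts in place of TMM the median of all genes was 0.095 and Apln also did not overlap between the groups.

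For the replicate numbers, 3231 genes were called without a filter and 1863 by DESeq2, against 1144. Leaving out 1 library gave 1 to 8 members called and 854 to 7841 genes. Depth limits Aplnr most, with 4 counts in IRI replicate 1.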
